A study of Mus musculus with 576 samples.

Results

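Cytosolic ribosomal protein genes were followed in single erythroid progenitors cultured with or without dexamethasone, a synthetic glucocorticoid. They were taken by symbol: names that start with Rpl or Rps and a digit, plus Rplp0, Rplp1, Rplp2 and Rpsa, without kinase genes named Rps6k and without symbols marked as pseudogenes by -ps. This rule gave 92 of the 49466 genes in the table. Of these, 31 encode proteins of the small ribosomal subunit and 46 encode proteins of the large subunit. The other 15 are paralogs or retrocopies, or, in the case of Rps19bp1, a gene of another kind whose symbol fits the rule. A total of 90 passed the filter on low counts, and 76 had a mean of at least 50 CPM over the plates (CPM are counts scaled to a common plate total by the TMM method).

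The cells came from livers of C57/Bl6J mouse embryos at day 14.5, a stage at which the fetal liver makes red cells. Mature and non-erythroid cells were removed with antibodies, and the remainder was sorted to enrich BFU-E (burst forming unit-erythroid), early progenitors committed to this lineage. The sort came before culture. Each of 6 plates of 96 wells held cells of 1 treatment and 1 time: 100 nM dexamethasone for 24, 48 or 72 hours (days 1, 2 and 3), or the same medium without it (control) for 24, 48 or 72 hours. Every plate's medium held erythropoietin (2 U/mL), stem cell factor (100 ng/mL) and IGF1 (40 ng/mL). A treatment and day has 1 plate, sequenced in its own lane, so plate, lane and group cannot be told apart.

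A ribosome joins RNA with one copy of each core ribosomal protein, and the P stalk, which recruits translation factors, carries its acidic proteins in several copies. The mRNAs of these proteins belong to the TOP class: they begin with a C and a run of pyrimidines, through which growth signals relayed by mTORC1 and the binding protein Larp1 set how strongly they are translated. Red cell precursors depend on an ample supply. In Diamond-Blackfan anaemia, a human failure of red cell production that is treated with glucocorticoids, most known mutations hit a single ribosomal protein gene, RPS19 most often.

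Some of the mouse genes, though not most, show this class feature in the sequence around the annotated transcription start. RefSeq (build GRCm38.p6) held start regions for 67 of the 92 genes. The start base was a C followed by at least 4 pyrimidines (C or T) in 14 of them (20.9%), against 798 of 26956 other genes in the table (2.96%). Such a tract began within 5 bases of the start in 30 members (44.8%) and in 21.1% of the other genes. The letters CCGGAAG, the core of an ETS factor site, were found on either strand of the RefSeq start region in 26 members (38.8%) and in 9.86% of the other genes. These counts describe letters, not use. The lines below give 30 bases each, 15 before the start and 15 from it on, with pyrimidine tracts of 5 or more bases that begin with C in capitals. Rps6, Rps18, Rplp2, Rpl35a and Rps21 have a tract over the start base, and Rps27l is set beside them as a gene without one there.
Rps6 (chr4:86857353-86857382, minus strand): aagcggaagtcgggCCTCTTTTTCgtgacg
Rps18 (chr17:33955651-33955680, minus strand): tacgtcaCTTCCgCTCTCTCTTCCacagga
Rplp2 (chr7:141447636-141447665, plus strand): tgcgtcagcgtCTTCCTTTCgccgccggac
Rpl35a (chr16:33056467-33056496, plus strand): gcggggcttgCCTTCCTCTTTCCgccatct
Rps21 (chr2:180257364-180257393, plus strand): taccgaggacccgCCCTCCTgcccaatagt
Rps27l (chr9:66946071-66946100, plus strand): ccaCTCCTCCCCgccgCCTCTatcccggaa
In Rps27l, a paralog of Rps27, tracts lie on both sides of the annotated start and do not cover it.

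After filters on depth, 563 wells were kept as cells: 94, 92 and 94 in the dexamethasone plates of days 1, 2 and 3 and 94, 96 and 93 in the control plates. The plates summed to between 88178493 and 116623968 counts, of which 2484512 to 4206885 fell on ribosomal protein genes, so counting error is small at the plate level. The 96 index pairs that mark wells were reused in all 6 lanes. A well position that stands out in several plates therefore shares its index pair. At 4 positions, numbers 68, 69, 70 and 76, cells with a high ribosomal protein share recurred. All 13 cells with a share above 5.5% lay there, the highest at 16.9%, and the highest share elsewhere was 5.40%. In the cell at 16.9% the share of other short transcripts was 17.98%, against a plate median of 4.03%. Results are given without these 4 positions where they rest on them. The erythroid markers were present: at most 1 of 11 was without a count in any plate. Their sum differed between the plates compared, at 2439, 3924 and 11371 CPM with dexamethasone on days 1, 2 and 3 and at 3629, 19297 and 32050 CPM in control. The sum of 6 early progenitor markers was 1005, 1314 and 671 CPM with dexamethasone and 966, 543 and 443 CPM in control, with at most 1 at 0 in any plate. The sum of 7 megakaryocyte markers was 315, 373 and 230.4 CPM with dexamethasone and 307, 83.8 and 80.2 CPM in control, with at most 1 at 0. Mast cell and basophil markers summed to 31.6, 846 and 42.6 CPM with dexamethasone and to 54.4, 2.80 and 56.1 CPM in control, with 5, 2 and 4 of 7 at 0 with dexamethasone and 3, 6 and 2 in control. The part of these differences in the results was not tested. Neutrophil and monocyte markers, whose cells the sort aimed to remove, summed to 330, 532 and 583 CPM in the dexamethasone plates of days 1 to 3 and to 1351, 3.43 and 1969 CPM in the control plates. Between 1 and 4 of the 10 were at 0 in 3 of the plates, and 7 in control on day 2. Cells with counts of at least 2 of these 10 genes numbered 24, 25 and 41 with dexamethasone and 44, 0 and 58 in control.

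Dexamethasone cells carried a larger share of ribosomal protein mRNA than control cells on each day. In the summed plates, ribosomal protein genes took 3.56%, 3.26% and 3.88% of all counts with dexamethasone on days 1, 2 and 3. Control plates stood at 2.82%, 2.90% and 3.61%. The difference was 0.747, 0.359 and 0.275 percentage points, a mean of 0.460 ± 0.252 (SD over 3 days). It was thus largest on day 1 and smallest on day 3. With 3 days, an exact two-sided permutation test of these differences could not give a p below 0.25, and none was run. Without the 4 well positions the differences were 0.757, 0.369 and 0.261 points. Without the cells that carried neutrophil and monocyte markers they were 0.661, 0.368 and 0.164 points.

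Both subunits took part. Proteins of the small subunit, counting all Rps symbols, took 1.45%, 1.35% and 1.61% of counts with dexamethasone, against 1.08%, 1.13% and 1.41% in control. Those of the large subunit, counting all Rpl symbols, took 2.11%, 1.91% and 2.27% with dexamethasone and 1.73%, 1.78% and 2.20% in control. Small subunit genes therefore made up 40.7%, 41.4% and 41.5% of the ribosomal protein counts with dexamethasone and 38.5%, 38.8% and 39.1% in control, higher on each day.

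**Figure D1:**
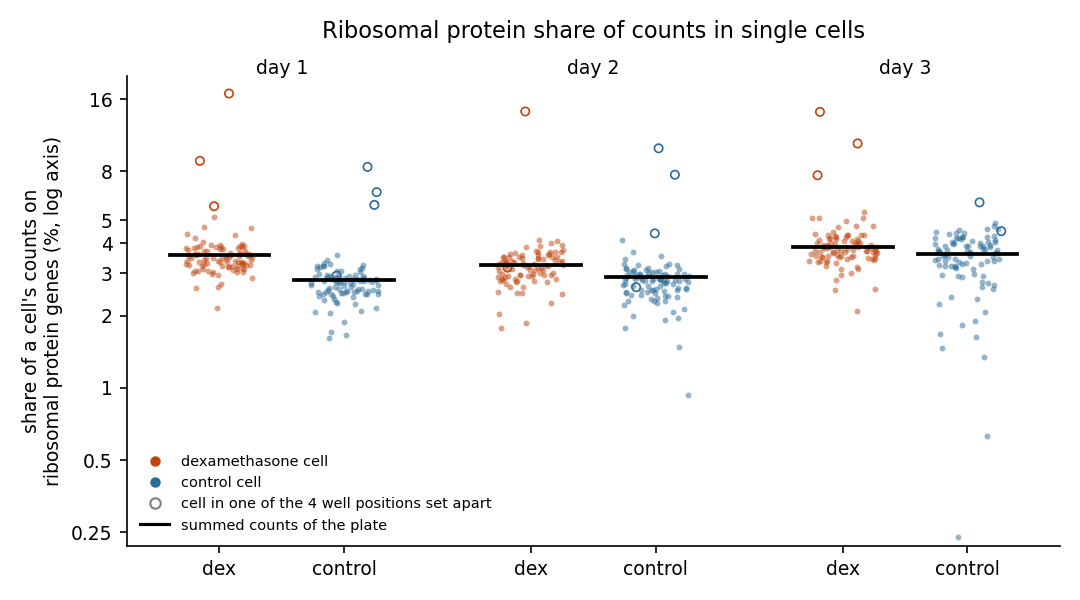
Share of each cell's counts that fell on ribosomal protein genes (vertical log axis, in percent), by day and treatment. Dots are cells, open circles are cells at the 4 well positions set apart, and black lines are the summed counts of the plate; the dexamethasone line lies above the control line on each day, by 0.747, 0.359 and 0.275 percentage points.

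Across cells the shift was broad on day 1 and narrower on day 3. The median cell held a share of 3.48%, 3.23% and 3.80% with dexamethasone on days 1, 2 and 3, against 2.76%, 2.80% and 3.66% in control. On day 1, 90 of 94 dexamethasone cells lay above the median control cell, and without the 4 positions 87 of 91 did. On day 2 the number was 76 of 92, and on day 3 it was 62 of 94. Cells of a plate share their source, so these numbers describe the plates and carry no test. Cells with a share under 2% numbered 0, 2 and 0 in the dexamethasone plates and 4, 5 and 8 in the control plates. The lowest, at 0.239%, was a day 3 control cell with 5.86% of its counts on globin genes. The cells under 2% were mixed in this respect, with globin shares from 0% in a day 1 control cell to 9.29% in a day 3 control cell. After each cell was thinned to 300000 counts, which left out 9 shallower cells, the medians were 3.47%, 3.21% and 3.80% with dexamethasone and 2.79%, 2.83% and 3.65% in control.

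Across genes the tilt was broad and small. Among the 76 genes with at least 50 CPM, 74, 64 and 64 were higher with dexamethasone on days 1, 2 and 3. The median log2 ratio of scaled CPM was 0.33, 0.22 and 0.22, while the median over all genes at that level was -0.06, -0.09 and -0.07. A total of 58 were higher on all 3 days and 0 lower on all 3. Over all genes at that level 19% were higher on all 3 days and 29.7% lower. In 25 of the 76 every dexamethasone plate stood above every control plate, against 5.43% of all genes at that level, and this held for 29 of all 90 tested members, against 7.14% of all tested genes. Of the 90, 65 were higher on all 3 days and 0 lower, against 19.1% and 16.2% of all tested genes. With DESeq2 size factors or total counts in place of TMM, 57 and 64 of the 76 were higher on all 3 days, against 17.1% and 23.9% of all genes at that level. The sizes were modest: 5, 3 and 6 of the 76 reached a 1.5-fold excess on days 1, 2 and 3, where 3.12%, 7.91% and 8.48% of all genes at that level did.

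In the model fitted to all genes, no member passed the threshold. The test was edgeR's quasi-likelihood test on the 6 plate sums with terms for day and dexamethasone. Its p-values were adjusted by Benjamini and Hochberg's method for 20040 genes, and 0.05 was the threshold. It called 0 of the 90 members for dexamethasone, with 0.0% of all genes called in either direction. At an unadjusted p under 0.05, 27 members were higher and 0 lower, against 4.51% of all genes higher and 5.82% lower. The median log2 fold change of the members was 0.25, with 0.07 over all genes. DESeq2 on the same sums called 4 members higher (Rps27l, Rps21, Rplp1 and Rps12) and 0 lower, where it called 2.5% of all genes higher and 3.78% lower. When only genes with at least 50 CPM were fitted, edgeR called 0 members, with 0.416% of those genes called higher and 0.462% lower, and the smallest adjusted p was 0.0855, for Rplp1. The fit has 2 residual degrees of freedom, so a missing call does not show that levels were equal.

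The members' tilt was shared by other short transcripts. Protein-coding genes outside the rule with a transcript under 1000 bases (2774 genes) took 4.16%, 3.91% and 4.54% of non-mitochondrial, non-globin counts with dexamethasone. Control stood at 3.37%, 3.17% and 4.26%. Among the 219 of these genes with at least 50 CPM, the median log2 ratio was 0.29, 0.22 and 0.13 on days 1, 2 and 3, close to the members' 0.33, 0.22 and 0.22. Genes of 1000 bases or more had medians of -0.09, -0.11 and -0.09. When plates were scaled to the short transcripts instead of to all genes, an alternative added after these values were seen, the median over all genes moved to -0.15 for dexamethasone and the members' to 0.02. The fitted fold change of 71 of the 76 was above 0 with the scaling to all genes and that of 45 with the scaling to short transcripts, with 26 of another sign. Of the 76 members, 16 were then higher on all 3 days and 8 lower, against 5.5% and 53.4% of all genes at that level. Relative to other short mRNAs, the median member thus stood near 0 in this contrast. Whether transcript length itself plays a part in the shares was not tested.

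**Figure D2:**
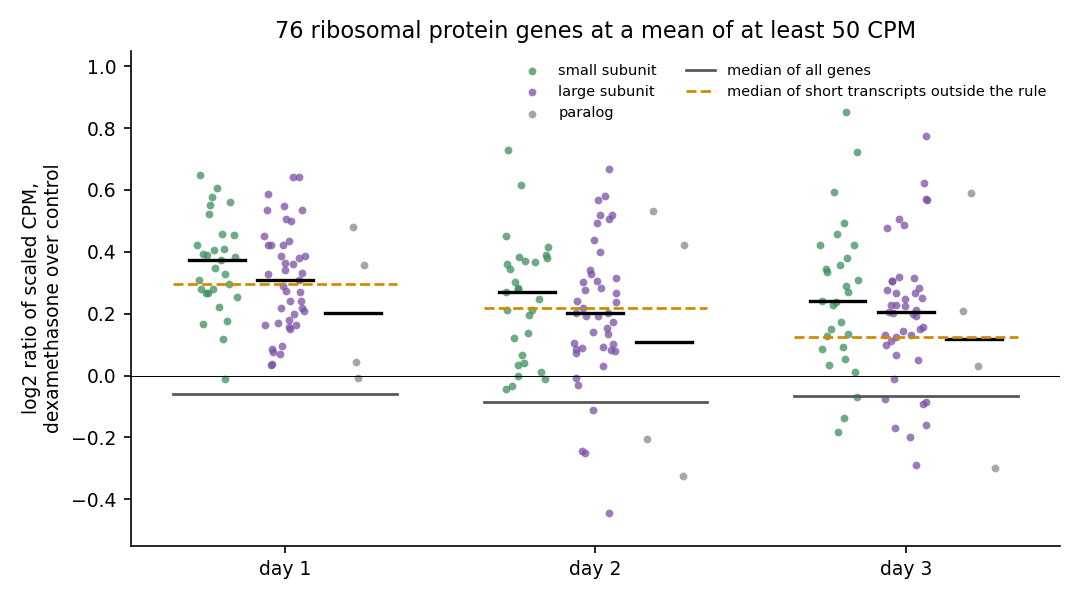
Log2 ratio of scaled CPM, dexamethasone over control, for each of the 76 ribosomal protein genes with 50 CPM or more (dots), by day and class; short black lines are medians of a class, grey lines the median of all genes at that level and dashed lines that of short transcripts outside the rule. Dots lie mostly above the grey lines and spread around the dashed ones.

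Length did not order the members themselves in one way. Across the 76 genes, Spearman's correlation between annotated transcript length and the log2 ratio was 0.18 for day 1, -0.47 for day 2 and -0.43 for day 3. Genes share libraries, so these values are a description. The 26 shortest, up to 637 bases, had median ratios of 0.34, 0.37 and 0.32 on days 1, 2 and 3, with 25 higher on all 3 days. The 26 longest, of 946 bases or more, had 0.40, 0.12 and 0.11, with 15 higher on all 3 days. On day 1 long members had medians at least as high as short ones, and on days 2 and 3 lower ones. The 12 members with at least 50 CPM whose start base is a C followed by at least 4 pyrimidines had medians of 0.27, 0.36 and 0.29. The other 47 with a start region had 0.34, 0.21 and 0.21. Some of these 47 have a start base further inside a tract.

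Among the 6 genes with the largest excess in their lowest day were Rps27l, Rps21, Rps12, Rplp1 and Rps20. By the same rule no member was lower on all 3 days. Rps27l, a paralog of Rps27 known as a p53 target, stood at 104, 107 and 152 CPM in the dexamethasone plates of days 1, 2 and 3, against 74.8, 74.3 and 101 CPM in control. Rps21, a small subunit protein, stood at 69.0, 90.2 and 94.5 CPM with dexamethasone and at 51.9, 54.4 and 57.2 CPM in control. In both genes the lowest dexamethasone plate lay above the highest control plate. Their log2 fold changes were 0.53 ± 0.11 and 0.62 ± 0.14 (SE), each with an edgeR adjusted p of 0.457 over all genes.

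Rplp1, a P stalk protein, reached 398, 542 and 543 CPM with dexamethasone and 309.7, 399.7 and 366 CPM in control. Rps12, a small subunit protein known in Drosophila for its role in cell competition, reached 119, 106 and 133 CPM with dexamethasone and 80.8, 82.4 and 73.8 CPM in control. Rps12 plates did not overlap, while for Rplp1 the control plate of day 2 lay just above the dexamethasone plate of day 1. The log2 fold changes were 0.46 ± 0.10 for Rplp1 and 0.59 ± 0.15 for Rps12. Of the 50-base stretches of the Rps12 transcript, 9.89% occur in no other annotated gene, so its reads may be exchanged with those of copies. For Rps21 this share was 73.6%, for Rps27l 77.6% and for Rplp1 40.0%.

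Rps20, which lies by the head of the small subunit, stood at 366, 417 and 411 CPM with dexamethasone and at 277, 328 and 321 CPM in control. Its plates did not overlap, and its log2 fold change was 0.37 ± 0.10. The fold changes of these 5 genes were positive under all 25 alternatives run, with the lowest, 0.14, for Rps20.

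**Figure D3:**
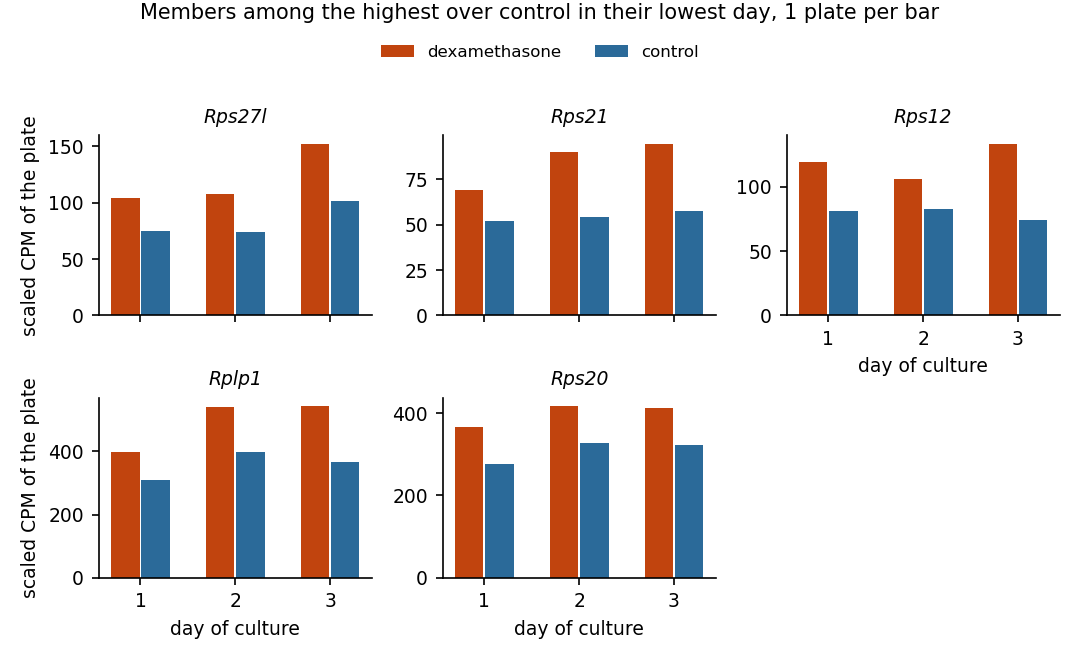
Scaled CPM of Rps27l, Rps21, Rps12, Rplp1 and Rps20 in each plate (bars, 1 plate each, vertical axes from 0), by day, with dexamethasone left of control. Each dexamethasone bar is higher than the control bar of its day; Rps21 stands at 69.0, 90.2 and 94.5 CPM against 51.9, 54.4 and 57.2.

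The same genes differed across cells. The median cell held 69.0, 95.4 and 90.7 CPM of Rps21 with dexamethasone on days 1, 2 and 3 and 48.0, 44.3 and 50.9 CPM in control. Of the dexamethasone cells, 79 of 94, 87 of 92 and 83 of 94 lay above the median control cell. For Rps12 these numbers were 83, 79 and 90, and for Rps27l 78, 80 and 79. On day 3, when 62 of 94 dexamethasone cells exceeded the median control cell in the total ribosomal protein share, more of them thus exceeded it for each of these 3 genes than for the total.

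The abundant members went another way on the later days. Rpl4, a large subunit protein lining the exit tunnel, stood at 3542, 3504 and 3803 CPM with dexamethasone and at 3461, 4148 and 4646 CPM in control. Rplp0, the scaffold of the P stalk, stood at 3227, 2608 and 3882 CPM with dexamethasone and at 2731, 3099 and 4459 CPM in control. Both were higher with dexamethasone on day 1 and lower on days 2 and 3. For Rplp0 the log2 ratio was 0.24, -0.25 and -0.20, and for its stalk partners it was 0.36, 0.44 and 0.57 (Rplp1) and 0.21, 0.51 and 0.77 (Rplp2). Rplp2 stood at 157, 222 and 211 CPM with dexamethasone and at 136, 156 and 123 CPM in control. The stalk genes, whose proteins form one complex, therefore had ratios of opposite sign on days 2 and 3. The annotated transcripts have 1538 bases for Rpl4, 1358 for Rplp0, 499 for Rplp1 and 964 for Rplp2. The log2 fold changes over the days were -0.07 ± 0.14 for Rplp0 and 0.50 ± 0.15 for Rplp2 (edgeR adjusted p 0.918 and 0.457). The sign for Rplp0 turned in 7 of 25 alternatives, at most to 0.0685, when the plate of dexamethasone on day 2 was left out with genes of at least 50 CPM. The difference between these genes was not tested.

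Genes mutated in Diamond-Blackfan anaemia were mostly higher as well. Of 19 on the list, 16 were higher with dexamethasone on all 3 days and 0 were lower, beside 65 and 0 of all 90 members and 19.1% and 16.2% of all tested genes. The median log2 ratio was 0.27, 0.30 and 0.28. Calls by edgeR and by DESeq2 numbered 0, and 6 were higher and 0 lower at an unadjusted p under 0.05, where 27 of the 90 members and 4.51% of all genes were higher. Rps19 stood at 218, 262 and 288 CPM with dexamethasone and at 187, 218 and 243 CPM in control, a log2 fold change of 0.24 ± 0.10. Rps24, also of the small subunit, stood at 239, 228 and 263 CPM with dexamethasone and at 174, 176 and 218 CPM in control. Rpl35a, which pre-rRNA cleavage needs, stood at 106, 109 and 112 CPM with dexamethasone and at 80.98, 75.8 and 91.8 CPM in control. Plates did not overlap for Rps24 and Rpl35a, and did for Rps19, where the control plate of day 3 lay above the dexamethasone plate of day 1. Rps26, which sits at the mRNA exit channel, was nearly level on day 1, with 216 CPM in dexamethasone and 218 CPM in control, and had 289 and 274 CPM in dexamethasone against 249 and 250.4 CPM in control on days 2 and 3.

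Rpl5 and Rpl11 form, with 5S rRNA, the particle that binds Mdm2 and stabilises p53 when ribosome assembly fails. Rpl11 stood at 149.9, 158 and 157 CPM with dexamethasone and at 129, 128 and 136 CPM in control, with no overlap. Rpl5 stood at 329, 265 and 333 CPM with dexamethasone and at 219, 232 and 351 CPM in control, higher on days 1 and 2 and lower on day 3. Only 6.16% of the 50-base stretches of Rpl5 occur in no other gene. Log2 fold changes were 0.24 ± 0.10 for Rpl11 and 0.23 ± 0.16 for Rpl5 (edgeR adjusted p 0.510 and 0.670).

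Levels differed by orders of magnitude among members although ribosomes need their proteins in fixed ratios. Per kilobase of transcript, among the highest mean levels over the 6 plates were those of Rpl4 (2504 CPM per kilobase), Rplp0 (2455), Rpl8 (2084) and Rps2 (1238). The lowest tested were the retrocopies Rps3a3 (7.90), Rpl6l (2.02) and Rps3a2 (1.69) and the paralogs Rpl39l (0.515) and Rpl3l (0.332). Rpl3l is the muscle form of Rpl3 and Rpl39l the testis form of Rpl39. The core gene Rpl24 stood at 13.8 CPM per kilobase, and 18.3% of its 50-base stretches are unique. Rps20 and Rps15a, at 95.4 and 30.3 CPM per kilobase, have annotated transcripts of 3706 and 5130 bases, which lowers a level per length. Uniqueness did not order levels overall: the median was 233 CPM per kilobase for the 20 genes under 20% unique, 246 for the 41 between 20% and 60%, and 174 for the 29 at 60% or more. How reads that map to several places were counted is not given in the sources used here, so such levels are uncertain.

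Paralogs were expressed beside their core genes, with different courses. Rpl22l1, the paralog of Rpl22, stood at 97.3, 63.6 and 88.5 CPM with dexamethasone and at 75.9, 73.3 and 109 CPM in control. Rpl22 itself stood at 163, 188 and 185 CPM with dexamethasone and at 132, 151 and 153 CPM in control. Per kilobase, Rpl22l1 was thus present at 221, 125 and 177 per 100 of Rpl22 with dexamethasone on days 1, 2 and 3, and at 214, 180 and 265 per 100 in control. The ratio was lower with dexamethasone on days 2 and 3 and close to control on day 1.

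Rps27l stood at 162, 119 and 199 per 100 of Rps27 with dexamethasone and at 122, 120.2 and 173 per 100 in control, all per kilobase. Rps27 has 1.35% unique 50-base stretches, so its share is poorly fixed. Rpl36al, the paralog of Rpl36a, stood at 111, 121 and 104 per 100 of Rpl36a with dexamethasone and at 120.3, 109 and 98.2 per 100 in control. The pair was near parity in all plates by these counts. Of the 50-base stretches, 14.5% are unique in Rpl36a and 36.7% in Rpl36al, so this ratio also depends on how shared reads were counted.

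Rpl7l1, the paralog of Rpl7, stood at 341, 160.1 and 242 CPM with dexamethasone and at 343, 201 and 237 CPM in control. Rpl7 stood at 1079, 898 and 1205 CPM with dexamethasone and at 692, 835 and 1280 CPM in control. Rpl7l1 was thus highest on day 1 in both treatments, unlike Rpl7. Rps4l, annotated as a transcribed processed pseudogene and a copy of Rps4x, stood at 31.6, 12.7 and 21.4 CPM with dexamethasone and at 23.9, 24.1 and 31.6 CPM in control, at 1.77 to 3.54 per 100 of Rps4x per kilobase. Rpl3 and Rps4x, both core genes, were higher with dexamethasone on day 1 and lower on days 2 and 3, with log2 ratios of 0.16, -0.44 and -0.17 for Rpl3 and 0.45, -0.03 and -0.07 for Rps4x. Rpl10 was higher on each day, with log2 ratios of 0.42, 0.08 and 0.25, and so were Rpl36a, with 0.16, 0.27 and 0.13, and Rpl39, with 0.42, 0.58 and 0.20.

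The tissue-restricted paralogs were near absent. Rpl10l, a testis gene, had 0, 1 and 1 counts in the dexamethasone plates and 0, 4 and 0 counts in the control plates. Outside this group, Rps12l1, annotated as a processed pseudogene, had a count in no cell. Of its 50-base stretches 0% are unique, so it would have no count if shared reads were left out. Its absence is therefore not shown. Rpl39l had 26, 0 and 10 counts with dexamethasone and 129, 0 and 82 in control. Rpl3l had 62, 0 and 107 counts with dexamethasone and 18, 1 and 106 in control. For the plates at 0, up to 3 counts are allowed, equal to 0.0261 and 0.0278 CPM on day 2 with dexamethasone and in control. At most 5.32% of the cells of a plate held a count of Rpl39l and at most 3.23% one of Rpl3l, and 1 cell held all Rpl39l counts of the dexamethasone plate of day 3.

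Day 3 stood above day 1 for most members in both treatments. The plate share was 3.88% on day 3 and 3.56% on day 1 with dexamethasone, a difference of 0.318 points, and 3.61% and 2.82% in control, a difference of 0.790 points. The mean was 0.554 ± 0.334 points (SD over 2 pairs of plates). Of the 76 genes with at least 50 CPM, 65 were higher on day 3 in both treatments and 3 lower in both, where 32.3% and 41.5% of all genes at that level were. Day 2 had the lowest share with dexamethasone, at 3.26%, and lay between the other days in control, close to day 1, at 2.90%. Median log2 ratios of day 3 over day 1 were 0.17 with dexamethasone and 0.31 in control, and those of day 2 over day 1 were -0.05 and 0.07.

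Short transcripts outside the rule again differed the same way: their share was 4.54% on day 3 and 4.16% on day 1 with dexamethasone, and 4.26% on day 3 and 3.37% on day 1 in control. Scaled to them, the median day 3 fold change of the members was 0.01 log2, against 0.24 with the scaling to all genes. The edgeR test called 0 members for day 3 against day 1 and 0 for day 2 against day 1, with 0.0% of all genes called in each direction. At an unadjusted p under 0.05, 9 members were higher and 2 lower on day 3, against 7.04% and 7.47% of all genes, and on day 2, 4 were higher and 6 lower, against 6.16% and 6.04%. DESeq2 called 0 members for day 3, where it called 5.28% of all genes higher and 5.0% lower. With only genes of at least 50 CPM in the fit, edgeR called 0 members for day 3, where 7.44% of those genes were called higher and 5.15% lower.

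The largest day 3 fold changes among genes with at least 50 CPM and the same sign in both treatments were those of Rps3a1, Rpsa, Rpl7, Rpl17, Rps27l and Rplp0. Rps3a1, a small subunit protein near the exit of the mRNA, stood at 644, 481 and 749 CPM on days 1, 2 and 3 with dexamethasone and at 422, 496 and 823 CPM in control. Rpsa, which also serves as a laminin receptor, stood at 870, 828 and 1081 CPM with dexamethasone and at 555, 835 and 984 CPM in control. Control plates were thus higher on each later day, and dexamethasone plates had their lowest value on day 2. Log2 ratios of day 3 over day 1 were 0.22 with dexamethasone and 0.96 in control for Rps3a1, and 0.31 and 0.83 for Rpsa. Whether the ratio differs between treatments was not tested, since each has 1 plate a day. The fold changes over both treatments were 0.58 ± 0.23 and 0.56 ± 0.20. For Rpl7 the value was 0.52 ± 0.22, for Rpl17 0.51 ± 0.15, for Rps27l 0.49 ± 0.13 and for Rplp0 0.48 ± 0.17. Without the dexamethasone plate of day 1, and with genes of at least 50 CPM, edgeR called 4 members higher on day 3, at log2 fold changes of 0.96 for Rps3a1, 0.88 for Rpsa, 0.86 for Rpl7 and 0.74 for Rps6. That fit called 8.59% of all genes at that level higher and 5.53% lower. It has 1 residual degree of freedom and 1 plate for day 1, which is assumed to vary like the others.

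Among the 76 genes with at least 50 CPM, those lower on day 3 in both treatments were Rpl7l1, Rpl30 and Rpl27. Rpl30, a large subunit protein, stood at 133, 127 and 118 CPM on days 1, 2 and 3 with dexamethasone and at 116, 80.1 and 84.3 CPM in control. Rpl27, whose gene is a rare cause of Diamond-Blackfan anaemia, stood at 155, 122 and 134 CPM with dexamethasone and at 137, 101 and 108 CPM in control. Their day 3 fold changes were -0.32 ± 0.17 and -0.28 ± 0.13 log2, and that of Rpl7l1 was -0.51 ± 0.15. For day 2 against day 1, Rpl7l1 was the one member edgeR called among genes of at least 50 CPM, at -0.87 ± 0.16 with an adjusted p of 0.0342, where 1.71% of those genes were called lower and 3.68% higher. DESeq2 also called it, at -0.92 with an adjusted p of 0.000288, along with Rpl39l and Rpl3l, whose counts rest on few cells. It called 3.61% of all genes lower and 4.12% higher.

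**Figure D4:**
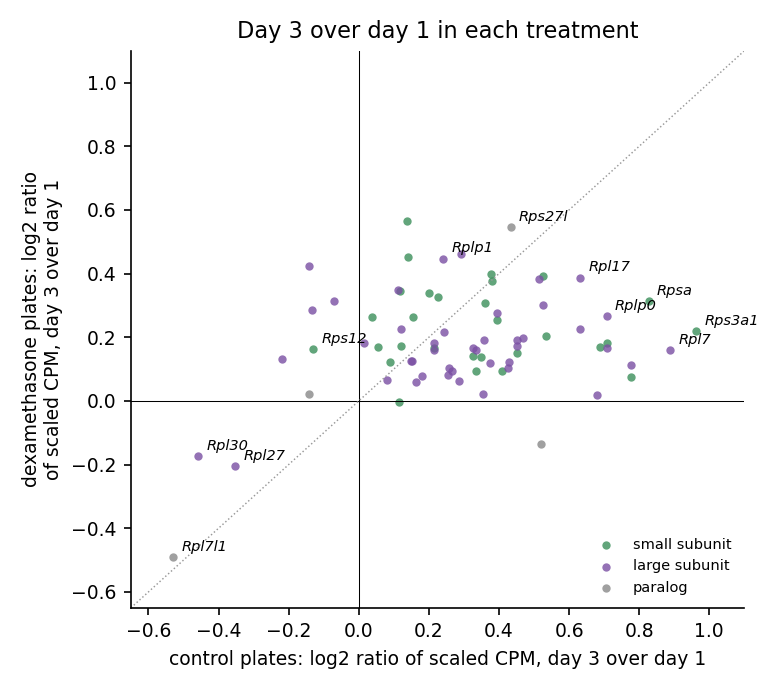
Log2 ratio of scaled CPM, day 3 over day 1, in the dexamethasone plates (vertical) and in the control plates (horizontal) for the 76 genes, coloured by class, with equal values on the dotted line. Most points lie in the upper right, where 65 of 76 fall, and Rpl7l1, Rpl30 and Rpl27 lie in the lower left.

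Within a plate, cells with more of one ribosomal protein mRNA tended to hold more of the others. Of the 76 genes, 74 were found in at least 95% of the cells of every plate and 40 in every cell. Spearman's correlation of a gene with the sum of all other members across cells thinned to 300000 counts, taken as the median over plates, ran from 0.19 for Rpl7l1 to 0.72 for Rps14 with a median of 0.52, and of 0.49 without the 4 well positions. Rpl8 was also among the highest. Low were the paralogs Rpl7l1 and Rpl22l1 (0.24) and the core gene Rps2 (0.31). The coefficient of variation across cells had a median of 0.42 over the genes and was smallest for Rpl4, at 0.19. These are descriptions over 92 to 93 cells a plate, and cells of a plate share library preparation and depth.

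The members' share went with the share of other short transcripts in the same cells. For the correlations in this paragraph, both shares were taken without mitochondrial and globin counts. Per plate, Spearman's correlation was 0.83, 0.67 and 0.56 with dexamethasone on days 1, 2 and 3 and 0.77, 0.70 and 0.40 in control. Without the 4 well positions it was 0.81, 0.66 and 0.52 with dexamethasone and 0.75, 0.66 and 0.38 in control. Correlation with the number of counts of a cell was -0.12, 0.05 and -0.04 with dexamethasone and 0.32, 0.36 and 0.35 in control. The summed share of the erythroid markers was taken without the 3 globins among the 11. Correlation with it was 0.10, 0.19 and -0.03 with dexamethasone and 0.41, -0.35 and -0.22 in control. In control the sign thus differed between day 1 and the later days.

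**Figure D5:**
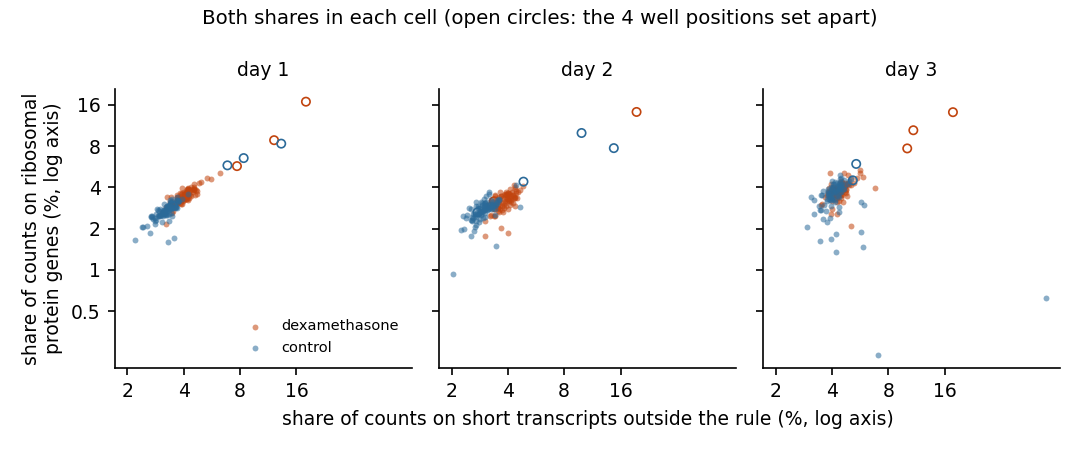
Share of counts on ribosomal protein genes (vertical, percent, log axis) against the share on other short transcripts (horizontal, percent, log axis) in each cell, by day; open circles are cells at the 4 well positions set apart. The points rise together on day 1 and less closely in control on day 3. Spearman's correlation was 0.83 with dexamethasone and 0.77 in control on day 1, and 0.40 in control on day 3. It was computed with mitochondrial and globin counts left out of both shares, while the vertical axis shows the share of all counts.

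The genes outside the rule most like the members across cells, by the lowest of the 6 within-plate correlations among 4249 genes with at least 50 CPM, were Eef1b2 (0.47 to 0.66), Naca (0.43 to 0.56), Rack1 (0.43 to 0.69), Btf3 (0.41 to 0.55) and Chchd2 (0.38 to 0.59). The most opposite were Serinc3 (-0.47 to -0.19) and Gm10801 (-0.46 to -0.17). Across these 4249 genes the median correlation itself had a Spearman correlation of -0.52 with transcript length.

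Other lists of the translation pathway were set beside the members. Fau and Rack1, which encode a ribosomal and a ribosome-bound protein outside the symbol rule, were both higher with dexamethasone on all 3 days. Rack1, the scaffold on the small subunit, stood at 2781, 2210 and 2855 CPM with dexamethasone and at 1821, 2081 and 2476 CPM in control. Of 16 other TOP mRNA genes, 4 were higher on all 3 days and 2 lower, near the 19.1% and 16.2% of all tested genes, with median log2 ratios of 0.19, -0.13 and -0.14. Tpt1, which encodes the tumour protein TCTP, had log2 ratios of 0.92, 0.26 and 0.30. Eef1b2, a subunit of the elongation factor that recharges eEF1A, stood at 1321, 969 and 1201 CPM with dexamethasone and at 743, 764 and 1200 CPM in control, and was thus level on day 3.

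Of 24 initiation factor genes, 3 were higher on all 3 days and 8 lower, where 19.1% and 16.2% of all tested genes and 19% and 29.7% of those with at least 50 CPM were. Eif3c, which had the largest fold change among those with at least 50 CPM, stood at 554, 643 and 471 CPM with dexamethasone and at 707, 994 and 863 CPM in control. Of 13 genes that control TOP mRNAs through mTORC1, 0 were higher on all 3 days and 4 lower, beside the same shares of all genes. Larp1, which binds the pyrimidine tract, stood at 98.4, 80.1 and 57.7 CPM with dexamethasone and at 124, 131 and 130.3 CPM in control, with no overlap, a log2 fold change of -0.74 ± 0.20 (edgeR adjusted p 0.457). For dexamethasone edgeR called 0 genes on each list. DESeq2 called 1 lower on each of the initiation factor, TOP control and ribosome rescue lists and 1 higher among ribosome assembly genes, where it called 3.78% of all genes lower and 2.5% higher. Of 8 rescue factor names 7 were found, and Gtpbp2, a rescue factor on this list, stood at 12.7, 36.2 and 41.9 CPM with dexamethasone and at 14.1, 128 and 240.4 CPM in control.

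Assembly and mitochondrial genes parted from the cytosolic proteins over the days. Of 24 ribosome assembly genes, 23 were lower on day 3 than on day 1 in both treatments, and among genes of at least 50 CPM edgeR called 13 of them lower and 0 higher, where 5.15% and 7.44% of those genes were. Over all tested genes 31.6% were lower on day 3 in both treatments and 30.6% higher. Of 7 escort genes, whose products guard new ribosomal proteins, 6 were tested and 5 were lower on day 3 in both treatments. Of 82 mitochondrial ribosomal protein genes tested, 45 were lower on day 3 in both treatments and 18 higher, with median log2 ratios of -0.19 with dexamethasone and -0.11 in control, whereas 72 of the 90 cytosolic ones were higher in both. For dexamethasone, 42 of the 82 were higher on all 3 days and 3 lower, against 19.1% and 16.2% of all tested genes, with median log2 ratios of 0.24, 0.14 and 0.15.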

How the data were processed

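Polyadenylated RNA of single cells was sequenced. The deposited values are whole-number counts per gene and well, made with STAR 2.4, featureCounts and build GRCm38 per the submitters' processing notes. The annotation release, strand setting, read length and handling of multimapping reads were not given in the sources used here. Since the labels name no molecular identifiers, counts were taken as reads, and limits from them cover counting error only. Of 576 value columns, 575 matched a well by name and 1 was not used. An extra empty cell in the header was dropped, and in this reading the glucocorticoid-induced genes Per1, Tsc22d3 and Fkbp5 were higher in every dexamethasone than in every control plate.

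Wells with at least 50000 counts, at least 1500 genes and at most 20% mitochondrial counts were kept (563, with 12 removed). Counts were summed per plate, since cells are not replicates. edgeR 4.0.16 (quasi-likelihood, TMM, filterByExpr, 20040 genes, terms for day and dexamethasone, 2 residual degrees of freedom) was the main test and DESeq2 1.42.0 an alternative, in R 4.3.3. Both were tested on simulated data. Nothing says that plates came from separate animals or cultures, so p-values measure only the spread between plates, which may be technical. Log2 ratios within a day used a prior count of 2. Lengths and coordinates came from GENCODE vM21, which matched 92 of 92 members, and start regions from RefSeq. Uniqueness is the share of a transcript's 50-base stretches found in no other annotated gene; the 50 bases were chosen, not read from the data. Correlations across cells used counts thinned to 300000 per cell where stated.

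Named genes were the 5 highest and 5 lowest per kilobase, the 6 with the largest excess in each direction for dexamethasone, the 6 with the largest fold change in each direction for day 3, paralog pairs, 5S particle and P stalk genes and 7 genes of Diamond-Blackfan anaemia, with at most 2 genes from each further list. Rps6, Rps18, Rpl24, Rps15a and Rps14 were named after their values were seen. Some genes that the rule names are not reported here. The members and all lists were chosen with earlier results of these data known.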

Additional observations from a re-analysis of the deposited data

Results flagged for a closer look

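The 275 genes that bear a ribosomal protein symbol marked -ps, which the comparisons leave out, held 0.0579% of all counts over the 6 plates. They were listed here as a signal in data that the comparisons did not use. Relative to the counts on the members, they stood at 1.70%, 1.81% and 1.65% in the dexamethasone plates of days 1, 2 and 3 and at 1.69%, 1.79% and 1.73% in the control plates. The ratio was thus close in all 6 plates. Whether these reads come from the copies or from the members was not tested.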

How the results depend on the processing

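No paired analysis was possible because the replicate numbers that groups share name wells of a plate; plates were matched by day alone, through the term for day in the fit. For dexamethasone, the count of members called was 0 in the edgeR fits run and 4 by DESeq2. For day 3 it was 0, 1 with at least 50 CPM and scaling to short transcripts, and 0 to 4 with at least 50 CPM and 1 plate left out, the 4 without the dexamethasone plate of day 1. For day 2 it was 0, 3 by DESeq2, 1 with at least 50 CPM, and 1 with that filter and scaling to short transcripts. The members' median log2 fold change for dexamethasone, 0.25, was 0.314 with total counts, with at least 50 CPM and with cells scaled to one total, and 0.322 without mitochondrial and globin counts. Total counts moved the median of all genes to 0.14. Scaled to short transcripts it was 0.0194, with and without the 50 CPM filter. Leaving out 1 plate gave 0.202 to 0.265, and 0.304 to 0.339 with at least 50 CPM (0.316 without the dexamethasone plate of day 1, 0.333 without that of day 3). The day 3 median, 0.24, was 0.00884 scaled to short transcripts and 0.0171 with the filter as well. Leaving out 1 plate gave 0.178 to 0.283, and 0.24 to 0.327 with at least 50 CPM. The mean share difference ran from 0.317 to 0.553 points without 1 day for dexamethasone, and from 0.318 to 0.790 for day 3 with 1 treatment at a time. For the 22 fitted gene values run under 25 alternatives each, 530 kept direction and side of the threshold, 13 passed it where they had not, and 7 turned sign, all for Rplp0 with dexamethasone: 0.00594 without mitochondrial and globin counts, 0.0174 without the control plate of day 2, 0.0186 without the dexamethasone plate of day 2, and with at least 50 CPM 0.0685 and 0.0479 without the dexamethasone plates of days 2 and 3 and 0.0569 and 0.0535 without the control plates of days 2 and 3. Leaving out 1 plate gave Rplp0 -0.249 to 0.0186. The scaling to short transcripts, the 4 left-out wells and the combinations with at least 50 CPM were chosen after seeing the data. The cause of these differences was not tested. With 1 plate a group and 2 residual degrees of freedom, the number of plates and not the depth limits the precision.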
